A study of Mus musculus with 2 samples.

Results

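DNA replication and G1/S genes, 51 mouse genes that act from origin licensing through the polymerases and nucleotide supply to the G1/S cyclins and their inhibitors, were followed in primary osteoblasts exposed to factors from 2 prostate cancer cell lines. The members came from a fixed list of gene symbols, matched to probe sets that the platform annotation assigns to a single gene. All 51 members had such a probe set, out of 18193 genes on the array. In both groups the osteoblasts had been cultured in alpha-MEM (fetal calf serum at 10%) and differentiated over 10 days by beta-glycerophosphate at 10 mM together with ascorbic acid at 50 µg/ml. They were kept without serum overnight and then received conditioned medium for 6 hours. One group received medium of MDA-PCa2b cells and the other medium of PC-3 cells, and each group was 1 Affymetrix array. Both media come from human prostate cancer lines that were derived from bone metastases; lesions of MDA-PCa2b are known to form bone, and those of PC-3 to destroy it. The study asked which osteoblast transcripts differ between the factors of these lines. Osteoblasts without tumour cell medium were not analysed here, so "lower" and "higher" compare PC-3 medium with MDA-PCa2b medium throughout, and a lower value cannot be assigned to a fall with one medium or a rise with the other.

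A cell that leaves quiescence makes D-type cyclins, which with Cdk4 and Cdk6 phosphorylate the retinoblastoma protein and release E2F factors. E2F factors switch on the genes of cyclin E, of the proteins that load the MCM helicase onto origins, of the polymerases and of nucleotide synthesis. Cyclin E with Cdk2 then starts S phase, and the inhibitors of the Cdkn1 and Cdkn2 families hold these kinases back. In bone cultures proliferation usually slows as osteoblasts mature and lay down mineral.

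With PC-3 medium most of these genes gave a modestly lower signal. Of 48 members above the floor on both arrays (the median signal of each array, 56.7 and 57.7), 43 had a log2 ratio below 0, beside 55.9% of the 10649 genes measured in this way. The median log2 ratio of the 48 members was -0.55, beside -0.04 over all measured genes, and the members ranged from -1.77 to 0.31. At least 1.5-fold lower were 19 members (39.6%), against 6.23% of all measured genes, and none was at least 1.5-fold higher, against 5.18% of all. The larger threshold was passed by few: 2 members, Cdc6 and Ccne2, were at least 2-fold lower (1.68% of all measured genes) and none was at least 2-fold higher (1.90% of all). The 1.5-fold count lies in a dense stretch of values. The nearest members inside it were Mcm4 (1.506-fold lower) and Pold1 (1.514-fold), and the nearest outside it were E2f1 (1.496-fold) and Gins1 (1.487-fold).

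The pattern by step was uneven. The lowest medians were those of nucleotide supply (-0.89), the E-type cyclins with Cdk2 (-0.88), the MCM proteins (-0.72) and the polymerases with primase (-0.72). The place of nucleotide supply rests on the probe set of Rrm2: without probe sets that can match several transcripts its median was -0.52. Beside it stood -0.79 for the MCM proteins, -0.56 for the polymerases with primase and -1.16 for the E-type cyclins. These other steps lost genes under that setting, so their medians do not cover the same genes as above. Cdk2 dropped out, which left Ccne1 and Ccne2 alone, as did Mcm7, Mcm10 and Pole. Origin recognition genes (-0.10) and CDK inhibitors (-0.06) lay close to the median of all genes. With 1 array per group there was no test between the media. The only measure of error was how far the probe sets of a gene lay from each other, an SD of 0.24 log2 units over 4921 genes, which holds no spread between cultures. Below, signals come in pairs, the MDA-PCa2b array first and the PC-3 array second.

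**Figure D1:**
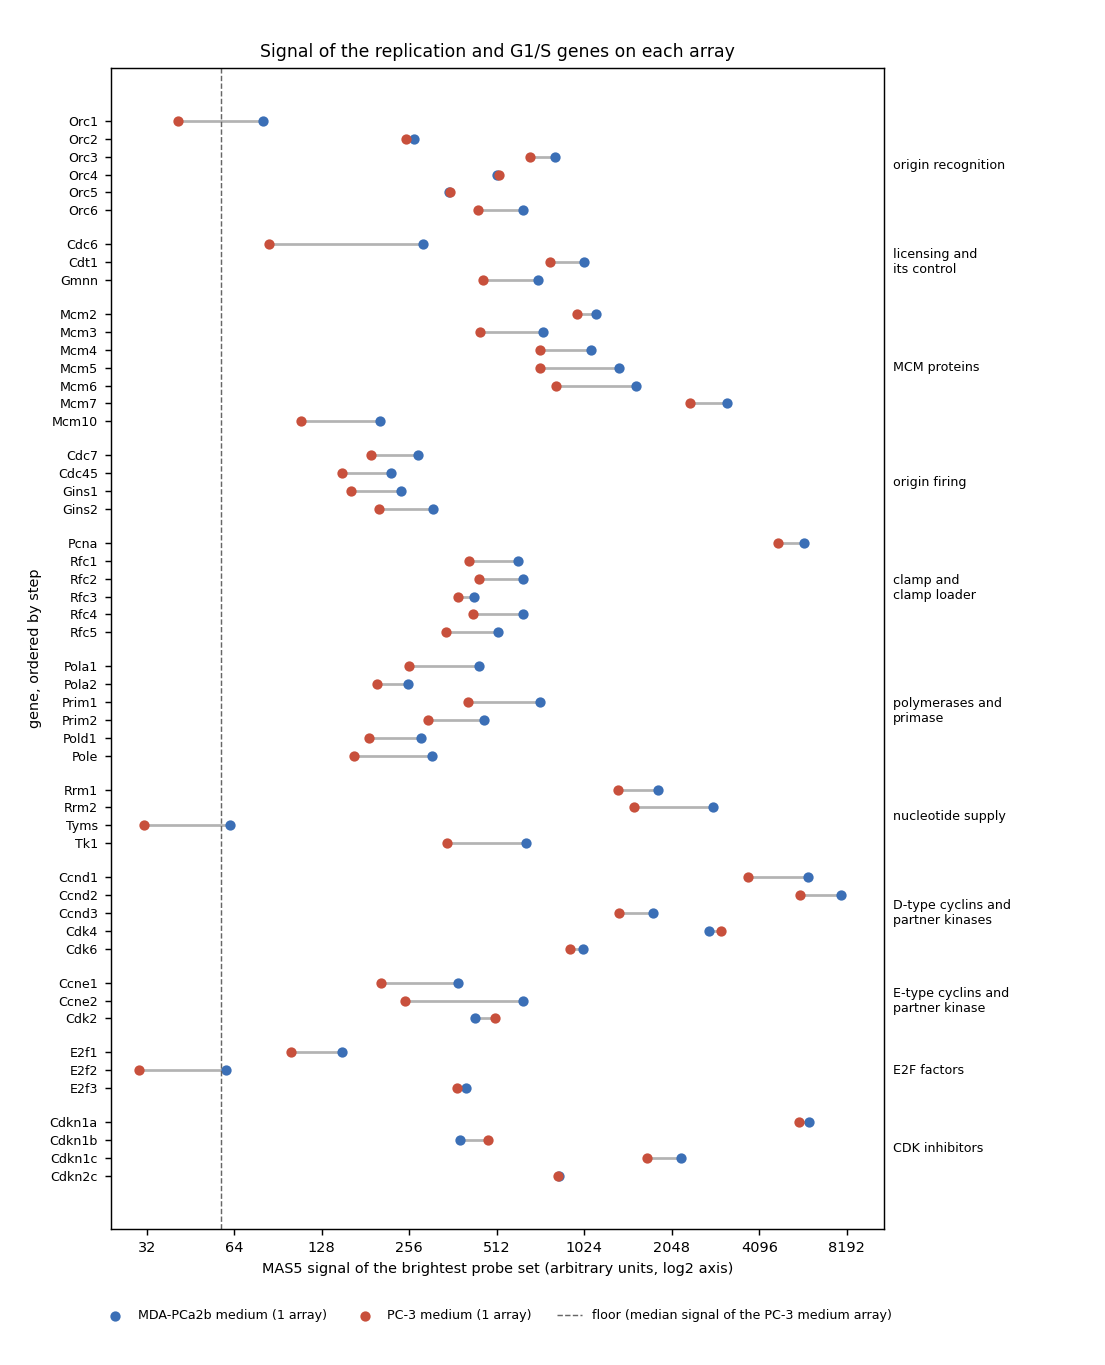
MAS5 signal of the brightest probe set of each of the 51 genes (x axis, arbitrary units on a log2 axis) with MDA-PCa2b medium (blue) and PC-3 medium (red), 1 array each, with genes grouped by step on the y axis. The red point lies left of the blue one for nearly every gene from Cdc6 to E2f1, while Orc4, Orc5, Cdk4, Cdk2 and Cdkn1b have the red point on the right. Orc1, Tyms and E2f2 cross the dashed floor.

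Several members gave the same answer with more than 1 probe set. Of 122 member probe sets 93 were above the floor on both arrays. Among these, 81 had a ratio below 0, beside 53.6% of all measured probe sets. In 29 members more than 1 probe set was measured, and in 23 of them all of these probe sets were below 0. Over all genes with several measured probe sets, all were below 0 in 33.2%. The exceptions among the members were Orc2, Orc3, Orc4, Cdk4, Cdk6 and E2f3, each with probe sets on both sides of 0. The remaining 3 members (Orc1, Tyms and E2f2) passed the floor by their brightest probe set on the MDA-PCa2b array only, so their ratios are bounds.

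Both arrays had a mean signal of 300.002 without the lowest and highest 2% of probe sets, and the median log2 ratio over 18 bacterial spike-in controls was 0.03. As signs of RNA quality, the 3'/5' ratios were 1.399 and 1.504 for beta-actin and 0.734 and 0.722 for Gapdh, in the order MDA-PCa2b and PC-3. All 8 named osteoblast markers passed the floor on both arrays, and their summed signal, most of it from Sparc, Col1a1 and Ibsp, was 75160 and 66718. By the brightest probe set all 8 had a log2 ratio below 0 (median -0.26), beside 55.9% of all measured genes. Of these, Ibsp (-0.12), Phex (-0.10), Sparc (-0.02) and Col1a1 (-0.004) were near 0, and 1 of 3 measured Sparc probe sets was below 0. At least 1.5-fold lower were 3 (37.5%, beside 6.23% of all): Ifitm5 (4442 and 741, 6.00-fold), Dmp1 (1765 and 426, 4.14-fold) and Sp7 (1469 and 919, 1.60-fold). Of 10 macrophage and osteoclast markers 9 passed the floor on both arrays, and Ocstamp passed it on neither. The summed signal, most of it from Ctsk (7420 and 7336), was 13361 and 13499. Besides those of osteoblasts, markers of macrophages and osteoclasts were thus present. Their median log2 ratio was 0.21, and 3 of the 9 were below 0, beside 55.9% of all measured genes. At least 1.5-fold higher were 2 of the 9 (22.2%, beside 5.18% of all), Fcgr1 (86.7 and 153, 1.77-fold) and Cd68 (566 and 851). The other probe set of Fcgr1 gave 58.5 and 46.5, above the floor on the MDA-PCa2b array only. Adgre1, the F4/80 macrophage marker, gave 1346 and 1405, and Csf1r, the M-CSF receptor gene, gave 2713 and 2378. None of the 5 endothelial, 4 lymphocyte and 5 skeletal muscle markers was above the floor on both arrays. All 5 chondrocyte markers were (summed signal 9641 and 8616), as were 2 of 4 adipocyte markers (371 and 668). The part of these cells in the lower replication signals was not tested. In RNA of a whole culture, fewer dividing cells and less RNA of these genes per cell cannot be told apart.

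E2F factors bind short sites upstream of many S-phase genes, so the promoters of the members were read for them. RefSeq promoter windows (GRCm38.p6, 250 bases before to 50 bases after a start) were at hand for 40 of the 51 members, 9 of them with several windows. The letters searched on both strands were TTTGGCGC, TTTCCCGC, TTTGCCGC and TTTCGCGC. A match was found in 14 of the 40 members (35.0%), measured or not, beside 2.6% of all 27025 genes with a window. Among measured members with a window, 12 had a match and 25 had none. Of all measured genes with a window, 4.91% had a match. Counted by window, 2.26% of all 32851 windows held one. The members hold 20 matches, 13 of them wholly before the start, and 1 of the 20 overlaps a match to another motif searched (the CCAAT box, CCAAT). Shown here are all members with a match before the start, because they let the reader set the letters beside the ratios that follow. Each line reads 5′ to 3′ on the strand of the gene, with the matches in capitals. Mcm6 and Rfc3 are shown for the 200 bases before the start and the others for 30 bases around the match.
Orc1, chr4:108579416-108579445, plus strand: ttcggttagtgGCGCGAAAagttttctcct
Orc3, chr4:34614965-34614994, minus strand: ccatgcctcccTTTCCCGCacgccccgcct
Cdc6, chr11:98908002-98908031, plus strand: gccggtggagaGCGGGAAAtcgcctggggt
Mcm5, chr8:75109347-75109376, plus strand: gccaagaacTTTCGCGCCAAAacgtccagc
Mcm6, chr1:128359706-128359905, minus strand: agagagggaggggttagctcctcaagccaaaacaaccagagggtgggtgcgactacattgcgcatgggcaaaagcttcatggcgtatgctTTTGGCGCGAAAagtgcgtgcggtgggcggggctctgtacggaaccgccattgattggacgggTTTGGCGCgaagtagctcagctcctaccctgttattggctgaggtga
Mcm7, chr5:138172030-138172059, minus strand: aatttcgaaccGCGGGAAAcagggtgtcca
Rfc3, chr5:151651209-151651408, minus strand: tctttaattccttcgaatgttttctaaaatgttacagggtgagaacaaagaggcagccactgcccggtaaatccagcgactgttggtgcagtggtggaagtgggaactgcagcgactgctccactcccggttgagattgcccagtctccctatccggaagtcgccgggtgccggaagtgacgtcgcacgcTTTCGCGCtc
Pola1, chrX:93632275-93632304, minus strand: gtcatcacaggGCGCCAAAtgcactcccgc
Cdk2, chr10:128705173-128705202, minus strand: aaccaggaactGCGGGAAAgttgtgcagct
E2f3, chr13:29986056-29986085, minus strand: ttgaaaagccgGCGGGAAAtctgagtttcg

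Mcm5 and Mcm6 each hold a pair of overlapping matches in opposite orientation, in Mcm5 153 bases and in Mcm6 110 bases before the start, and Mcm6 has a further match nearer the start. The windows of Mcm3, Cdt1, Pold1 and E2f2 hold matches only after the start. Members with a match had both low ratios and ratios near 0: Cdc6 and Mcm6 are among the lowest members, while Cdk2 (0.23) and E2f3 (-0.10) are not. The 12 measured members with a match had a median log2 ratio of -0.51 and the 25 measured members with a window and no match -0.45. At least 1.5-fold lower were 6 of the 12 and 6 of the 25. The 11 members without a window had a median of -0.63, with 7 at least 1.5-fold lower. Outside the lists of cell cycle genes the median was -0.04 over 399 measured genes with a match and -0.03 over 8169 with a window and no match. There, 8.02% of the former and 5.73% of the latter were at least 1.5-fold lower. A match describes letters and does not show that a factor was bound, and members without one may have sites outside these windows. The CCAAT box was in 60.0% of the 40 members with a window, measured or not, and in 43.0% of measured genes. For the GC box GGGCGG these shares were 80.0% and 71.3%. The cell cycle homology region TTTGAA was in 12.5% of members and 14.0% of measured genes. It was in 70.4% of 27 mitosis genes with a window, of which 3.70% held an E2F match.

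Origin recognition genes, whose products mark the sites where replication can begin, differed little except for Orc6 and, by one of its probe sets, Orc1. Orc6 gave signals of 633 and 439, 1.44-fold lower. Orc1, the subunit gene known to vary most through the cell cycle, gave 80.5 and 40.9, at least 1.39-fold lower because the second value is below the floor. Its other probe set gave 55.2 and 58.0, above the floor on the PC-3 array only and not lower. Orc2 gave 267 and 249, Orc3 810 and 664, Orc4 515 and 519, and Orc5 350 and 354. Orc2 to Orc5 thus had log2 ratios between -0.29 and 0.01, and other probe sets of Orc2, Orc3 and Orc4 ran from -0.35 to 0.34.

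Among the genes that license origins, Cdc6 stood lowest of all members. Cdc6 protein, with Cdt1, brings the MCM helicase to the origin recognition complex. The Cdc6 signal was 286 on the MDA-PCa2b array and 84.0 on the PC-3 array, 3.41-fold lower, which ranked 23 from the lowest among the 10649 measured genes. It is read by a single probe set, and its signal with PC-3 medium was not far above the floor. Cdt1 gave 1018 and 778 (1.31-fold lower, log2 ratio -0.39, and -0.35 by its second probe set). Gmnn, the gene of geminin, which blocks Cdt1 after S phase has begun, gave 708 and 458 (1.55-fold lower). Loader and inhibitor genes were thus lower together.

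MCM genes were all below 0, and 5 of the 7 were at least 1.5-fold lower. Mcm2 to Mcm7 encode the subunits of the replicative helicase, and Mcm10 an activator of it. Mcm6 gave 1547 and 820 (1.89-fold lower), Mcm5 1347 and 722 (1.86-fold) and Mcm10 203 and 109 (1.87-fold). The second probe sets of Mcm5 and Mcm6 gave log2 ratios of -0.79 and -0.80, close to -0.90 and -0.92 by the brightest. Mcm3 gave 739 and 449 (1.65-fold lower), with probe sets from -0.97 to -0.55 in log2 ratio. Mcm4 gave 1083 and 719 (1.51-fold lower, but 1.45-fold by its second probe set). Mcm7 gave 3167 and 2364, with 4 probe sets between -0.63 and -0.42. Mcm2 was the one whose size depended most on the probe set: the brightest gave 1123 and 965 (log2 ratio -0.22) and the second -0.94. All 17 measured MCM probe sets were below 0.

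Origin firing genes lay in a narrow range. Cdc7, the kinase gene that triggers the loaded helicase, gave 274 and 188 (1.45-fold lower). Cdc45 gave 221 and 151 (1.47-fold), and the GINS genes Gins1 and Gins2 gave 239 and 161 (1.49-fold) and 310 and 201 (1.54-fold). Cdc45 and GINS proteins join MCM to form the active helicase. The 4 log2 ratios ran from -0.63 to -0.54, and the other probe sets of Cdc7 (-0.29) and Gins2 (-0.44) were nearer to 0.

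The sliding clamp and its loader differed less. Pcna, the clamp gene, gave 5859 and 4765 (1.23-fold lower). Among the clamp loader genes Rfc5 gave 518 and 341 (1.52-fold lower), Rfc4 629 and 423 (1.49-fold), Rfc1 604 and 412 (1.47-fold) and Rfc2 630 and 445 (1.42-fold). Rfc3 gave 427 and 376 (1.14-fold). Probe sets of Rfc1 disagreed in size, with log2 ratios of -0.55, -0.23 and -0.05.

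Of the 6 genes of polymerases and primase, 5 were at least 1.5-fold lower. Pole, the catalytic subunit gene of the leading-strand polymerase epsilon, gave 307 and 165 (1.86-fold lower). Pola1, the catalytic subunit gene of polymerase alpha, gave 444 and 256 (1.73-fold), and its partner Pola2 gave 253 and 198 (1.28-fold). The primase genes, whose products make the RNA primers, were Prim1 with 723 and 409 (1.77-fold lower; log2 ratio -1.38 by its second probe set) and Prim2 with 464 and 298 (1.56-fold). Pold1, the catalytic subunit gene of polymerase delta, gave 282 and 186, with log2 ratios of -0.60 and -0.55 by its probe sets.

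All 3 measured nucleotide supply genes were lower, and Rrm2 and Tk1 by more than 1.5-fold. Rrm2, the S-phase subunit gene of ribonucleotide reductase, gave 2832 and 1523 (1.86-fold lower, and log2 ratios of -0.83 and -0.52 by further probe sets). Rrm1, the large subunit gene, gave 1837 and 1342 (1.37-fold; -0.61 by its second probe set). Tk1, the thymidine kinase gene of the salvage pathway, gave 644 and 344 (1.87-fold lower). Tyms, the thymidylate synthase gene, gave 61.8 and 31.3, just above the floor and below it, and its other probe sets were below it on both arrays, so no size can be given for it.

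**Figure D2:**
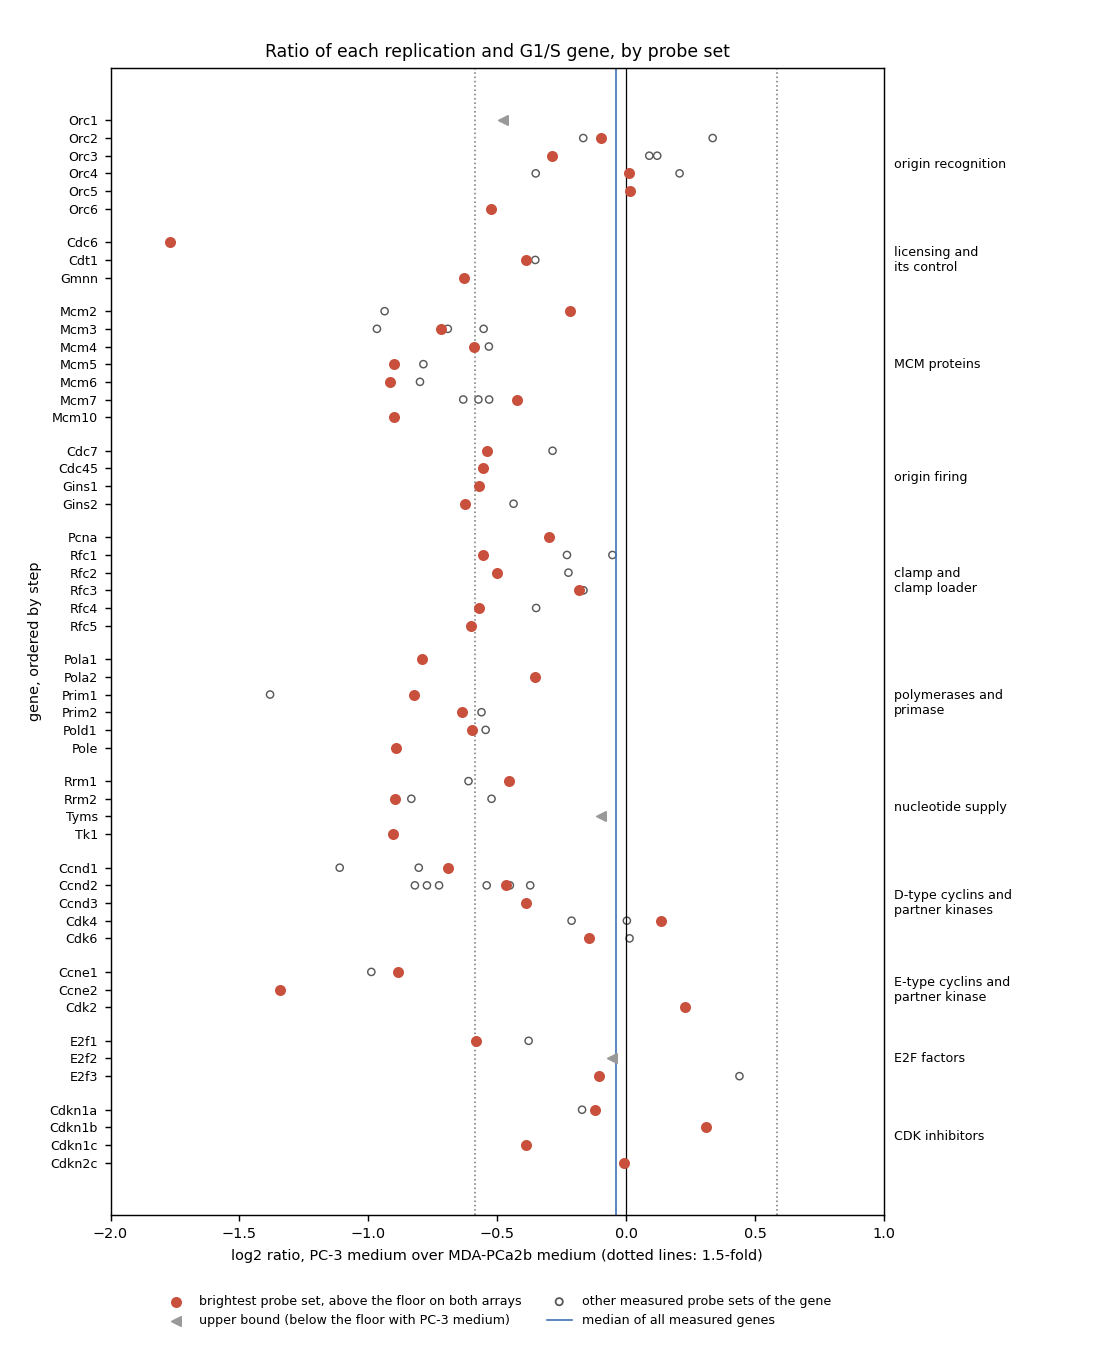
Log2 ratio of PC-3 medium over MDA-PCa2b medium (x axis) for each gene (y axis, by step), with the brightest probe set as a filled point, other measured probe sets as open circles and bounds as triangles; the blue line is the median of all measured genes (-0.04) and dotted lines mark 1.5-fold. Cyclin genes and the genes from Cdc6 to Tk1 lie left of 0, while the kinase genes Cdk2, Cdk4 and Cdk6 lie near it.

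All 5 cyclin genes were lower, while the genes of their kinases had ratios near 0 or above it. Ccnd1, the cyclin D1 gene and a target of growth factor signals, gave 6046 and 3746 (1.61-fold lower), and the log2 ratios of its further probe sets were -0.80 and -1.11. Ccnd2 gave 7803 and 5652 (1.38-fold lower), and all 7 of its probe sets were below 0, from -0.82 to -0.37. Ccnd3 gave 1766 and 1348 (1.31-fold). Ccne2, a cyclin E gene, gave 628 and 248, 2.53-fold lower by its only probe set, and Ccne1 gave 378 and 205 (1.85-fold, with a log2 ratio of -0.99 by its second probe set). Among the kinase genes Cdk4 gave 2754 and 3026 (log2 ratios of 0.14, 0.00 and -0.21 by its probe sets), Cdk6 gave 1011 and 915 (-0.14 and 0.01), and Cdk2 gave 430 and 504 (1.17-fold higher).

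The E2F genes measured were E2f1 and E2f3, both activators. E2f1, itself an E2F target, gave 150 and 100.4 (1.496-fold lower; log2 ratio -0.38 by its second probe set). E2f3 gave 401 and 373 (log2 ratio -0.10), and its second probe set gave 0.44. E2f2 gave 59.9 and 30.1, just above the floor and below it.

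CDK inhibitor genes had ratios on both sides of 0. Cdkn1b, the p27 gene, whose product binds cyclin E with Cdk2, gave 384 and 476, 1.24-fold higher and the highest ratio of the members. Cdkn1a, the p21 gene and a p53 target, gave 6087 and 5603 (log2 ratios of -0.12 and -0.17 by its probe sets). Cdkn2c, the p18 gene, gave 836 and 832. Cdkn1c, the p57 gene, was the lowest of the 4, with 2207 and 1686 (1.31-fold lower). Of these 4 differences those of Cdkn1b and Cdkn1c exceeded the probe set SD of 0.24, which holds no spread between cultures. Both genes were measured by 1 probe set each.

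The median of the members was below 0 at each level of signal. Genes were split into tertiles by mean signal over both arrays. In the low tertile 5 of 11 members were at least 1.5-fold lower, against 9.41% of all measured genes there. In the middle tertile 9 of 20 were, against 6.00%, and in the high tertile 5 of 17, against 3.27%. Median log2 ratios of the members were -0.58, -0.56 and -0.39 from low to high, and those of all genes between -0.04 and -0.03. By rank, 28 of the 48 measured members lay among the lowest 10% of measured genes.

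**Figure D3:**
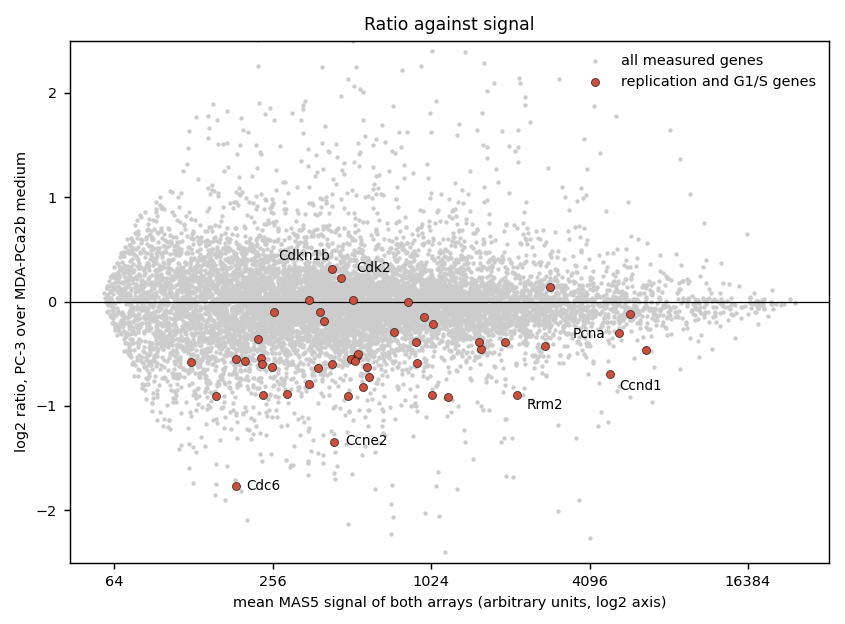
Log2 ratio (y axis, cut at 2.5 in both directions, which leaves out 25 genes) against mean MAS5 signal of both arrays (x axis, log2 axis) for all 10649 measured genes (grey) and the 48 measured members (red). Members below 0 occur in each tertile of signal, among them Cdc6 in the low, Ccne2 in the middle and Rrm2 and Ccnd1 in the high tertile.

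Other genes of replication and G1/S control, taken from a list of 58, were also mostly lower. Of 53 measured, 48 were below 0 (90.6%, beside 55.9% of all measured genes). At least 1.5-fold lower were 10 (18.9%, beside 6.23% of all), 3 of them at least 2-fold (5.66%, beside 1.68%). None was at least 1.5-fold higher, against 5.18% of all. Their median log2 ratio was -0.35. Among the measured genes the largest ratios belonged to Chaf1b, a subunit gene of the chromatin assembly factor that follows the fork (322 and 135, 2.39-fold lower), and Uhrf1, whose product guides maintenance methylation (402 and 177, 2.27-fold). They were followed by Nme1, a nucleoside diphosphate kinase gene (6622 and 2969, 2.23-fold, but -0.31 in log2 ratio by its second probe set), and Dck, the deoxycytidine kinase gene (1069 and 557, 1.92-fold). Dna2, a nuclease-helicase gene, was 1.87-fold lower and the repressor gene E2f7 1.74-fold lower. Shmt1, a gene of one-carbon metabolism, was below the floor with PC-3 medium (136 and 52.4), at least 2.36-fold lower as a bound. The inhibitor gene Cdkn2b had the highest ratio of this list, with 1827 and 2687 (1.47-fold higher).

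Mitosis genes, which act after S phase, were mostly lower as well. Of 32 measured, 31 were below 0 (96.9%, beside 55.9% of all measured genes). At least 1.5-fold lower were 7 (21.9%, beside 6.23% of all), and none was at least 2-fold lower (1.68% of all). These counts use the brightest probe sets. The second probe set of Cdc25c was 2.21-fold lower (144 and 65.3), and that of Cenpe 1.61-fold higher (94.7 and 152). The median of the mitosis genes was -0.44. The spindle checkpoint genes Mad2l1 (2072 and 1250) and Ttk (357 and 216) were lowest, 1.66-fold and 1.65-fold lower. No test of the difference between these lists and the members was possible.

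**Figure D4:**
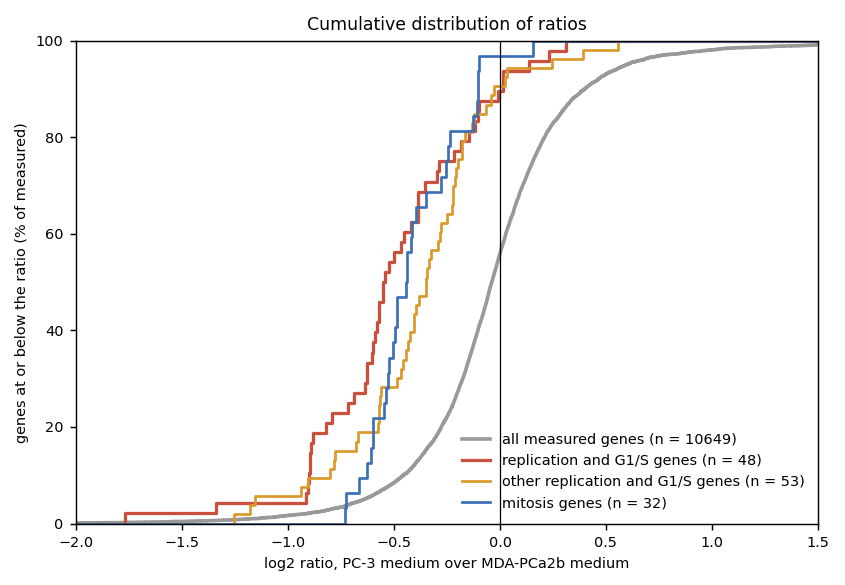
Cumulative share of genes (y axis, % of measured genes) at or below each log2 ratio (x axis) for all 10649 measured genes (grey), the 48 measured replication and G1/S genes (red), 53 other replication and G1/S genes (orange) and 32 mitosis genes (blue). The medians of the 3 lists, -0.55, -0.35 and -0.44, lie left of that of all genes (-0.04), and Cdc6 at -1.77 is the lowest gene of the 3 lists.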

How the data were processed

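Total RNA of 2 cultures was hybridised to 1 array per medium. Per the submitters' processing notes, GCOS 1.4 and MAS5 were used; the values the authors deposited are probe set signals, an intensity on a linear scale. Detection calls, background settings and the scaling target are not given in the sources used here. Groups follow the source description of each sample, since one title, that of PC-3, holds the name of both lines in part. Of 45101 probe sets 64 were controls; of the others 34945 had 1 gene in the platform annotation, 932 several and 9160 were unlisted. All 51 members matched the RefSeq table by Entrez identifier, with the same symbols.

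The floor was the 50th percentile of each array, to which lower signals were raised before log2. The brightest probe set by mean signal stood for its gene. A gene was measured when above the floor on both arrays; otherwise its ratio was a bound. The number of arrays limits the precision: there was no SD, standard error or p-value. Every member is reported. In other lists the 6 largest ratios of at least 1.5-fold at most are given. Members just at a threshold, Cdkn2b, Shmt1, the second probe sets of Cdc25c and Cenpe, and the markers given by value were chosen after their values were seen. Promoters to be shown were Cdc6 and Mcm7 by rule; the others were added after the matches were seen. The members, lists and tests were chosen with earlier results of these data known. Scripts (Python 3.11.15, numpy 2.4.6, pandas 2.3.3) were tested on simulated data. Alternatives changed the floor, pseudocount, normalisation, centring and probe sets.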

Additional observations from a re-analysis of the deposited data

How the results depend on the processing

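With 1 array per medium, no replicate could be left out, and the values describe these arrays alone. No paired analysis was possible because each medium had 1 sample. Under all 7 alternatives the median log2 ratio of the members stayed below 0 (-0.55 to -0.42, main value -0.55). No member was at least 1.5-fold higher under any of them, beside 3.73% to 8.76% of all measured genes. The floor at the 75th percentile left 33 measured members, with a median of -0.42. Of these, 28 were below 0, beside 57.5% of all genes measured at that floor. At least 1.5-fold lower were 10, beside 3.44% of all, and 0 were at least 2-fold lower, beside 0.868% of all. Fewer genes were tested there, since Cdc6 lies below that floor on both arrays and Ccne2 with PC-3 medium. Of the E-type cyclin group this floor left Cdk2 alone, with a median of 0.23. Without probe sets that can match several transcripts 1 member was at least 2-fold lower (1.65% of all measured genes), since Cdc6 has no other probe set. Averaging probe sets gave 3 members at least 2-fold lower (1.48% of all measured genes), with Prim1 added (-1.10). With the median log2 ratio of all genes set to 0, 42 of 48 members were below 0, beside 50.0% of all measured genes. At least 1.5-fold lower were 16 members, beside 5.36% of all. Of 315 values of single members under the alternatives 8 moved by more than the probe set SD, among them Mcm2 (-0.94 without such probe sets), Rrm2 (-0.52) and Rfc1 (-0.28 with probe sets averaged), and none that was at least 1.5-fold apart changed sign. Signals near the floor limit what can be said of Orc1, Tyms, E2f2 and the size of the Cdc6 ratio.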
